A study of Mus musculus with 6 samples.

Results

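The 37 genes of the mouse mitochondrial genome were taken as every gene whose symbol begins with mt-, which gave 37 of the 46072 genes in the count tables. By product they were 13 mRNAs, for subunits of the respiratory chain and of ATP synthase, 2 rRNAs of the mitochondrial ribosome, and 22 tRNAs. All 37 matched the GENCODE vM21 annotation of the GRCm38 mouse genome, and all 37 passed the filter on low counts. The RNA came from mouse embryos at the 4-cell stage. In the 3 Son siRNA libraries, siRNA against Son had been injected at the zygote stage, and the other 3 libraries were labelled control. Son encodes a nuclear speckle protein that acts in the splicing of nuclear pre-mRNA. The labels give no strain, no number of embryos per library, no description of what controls received and no statement that libraries came from separate litters, so each p-value measures only the spread between these libraries. cDNA was made with Smart-Seq2, a full-length protocol that primes on poly(A) with oligo(dT) and keeps no record of strand.

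Mitochondrial DNA is transcribed from both strands into long RNAs that carry most of the genes end to end. Enzymes cut the tRNAs out of them, which frees the mRNAs and rRNAs between, and most of these receive a short poly(A) tail that in several mRNAs also completes the stop codon. Mitochondrial transcripts contain no introns, and their synthesis, cutting, modification and decay depend on proteins made from nuclear genes. In the mouse, the mitochondria of the cleaving embryo are inherited from the egg.

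Oligo(dT) priming makes the 3′ ends of these RNAs relevant to what was counted. The last 30 bases of 4 mRNA genes are shown as annotated, from the GENCODE vM21 transcripts on GRCm38. Where the RNAs themselves end was not tested. The capitals mark the part of the stop codon that the DNA encodes. mt-Co1 (chrM:6843-6872) ends in a complete stop codon, while mt-Cytb (chrM:15259-15288), mt-Co3 (chrM:9361-9390) and mt-Nd4 (chrM:11515-11544) end in a lone T, all on the + strand.
mt-Co1: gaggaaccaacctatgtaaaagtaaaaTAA
mt-Cytb: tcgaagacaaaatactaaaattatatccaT
mt-Co3: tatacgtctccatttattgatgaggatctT
mt-Nd4: gtccaaaactaattacaggcctgacaataT

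The libraries held 104634855 to 118865650 units of estimated count. Son had 41.03, 28.0 and 25.1 CPM in the siRNA libraries, against 249, 322 and 332 CPM in the controls, where CPM is the read count normalised to library size and scaled by TMM (log2 fold change -3.26, SE 0.272, adjusted p 0.00991, from the quasi-likelihood test of edgeR adjusted by Benjamini-Hochberg over all genes tested). All 10 early embryo markers were detected, with a summed level of 1699 to 1897 CPM in siRNA libraries and 2800 to 4322 CPM in controls, and the part of this difference in the mitochondrial values was not tested. Dppa2 carried most of the sum (log2 fold change -1.45), and 4 of the 10 markers, Gdf9, Nlrp5, Ooep and Zp3, had fold changes above 0, at 1.203, 0.77, 0.69 and 0.66. Cumulus, sperm and blood marker lists summed to at most 12.4 CPM in any library, with 3 of 10 cumulus, 4 of 10 sperm and 4 of 8 blood markers at 0 in all libraries. Control 2 stood apart from the other controls in its mitochondrial genes, and results that rest on it are given with and without it. Reads amplified without molecular identifiers are not independent molecules, and the size of a unit in reads is not given in the sources used here, so no counting interval is printed.

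Mitochondrial genes made up 13.8%, 17.5% and 13.2% of all counts in siRNA libraries 1 to 3, against 15.3%, 9.79% and 15.98% in controls 1 to 3. The means were 14.9 ± 2.33% after siRNA and 13.7 ± 3.39% in controls (SD, n = 3 each). The groups overlapped, and control 2 was the lowest of the 6 libraries. The difference of siRNA minus control was 1.18 percentage points with all libraries. It turned to -0.769 without control 2 and to -0.158 without siRNA library 2, and reached 2.33 without control 3. Such a share cannot tell fewer mitochondrial transcripts per embryo from more nuclear transcripts, and in bulk RNA fewer cells of a type and less RNA per cell cannot be told apart. The nearly identical nuclear copies described further on took another 4.03%, 5.38% and 3.96% of counts in siRNA libraries and 3.42%, 2.67% and 4.34% in controls, which brought the means to 19.3 ± 3.13% and 17.2 ± 4.15%, again with overlap.

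**Figure D1:**
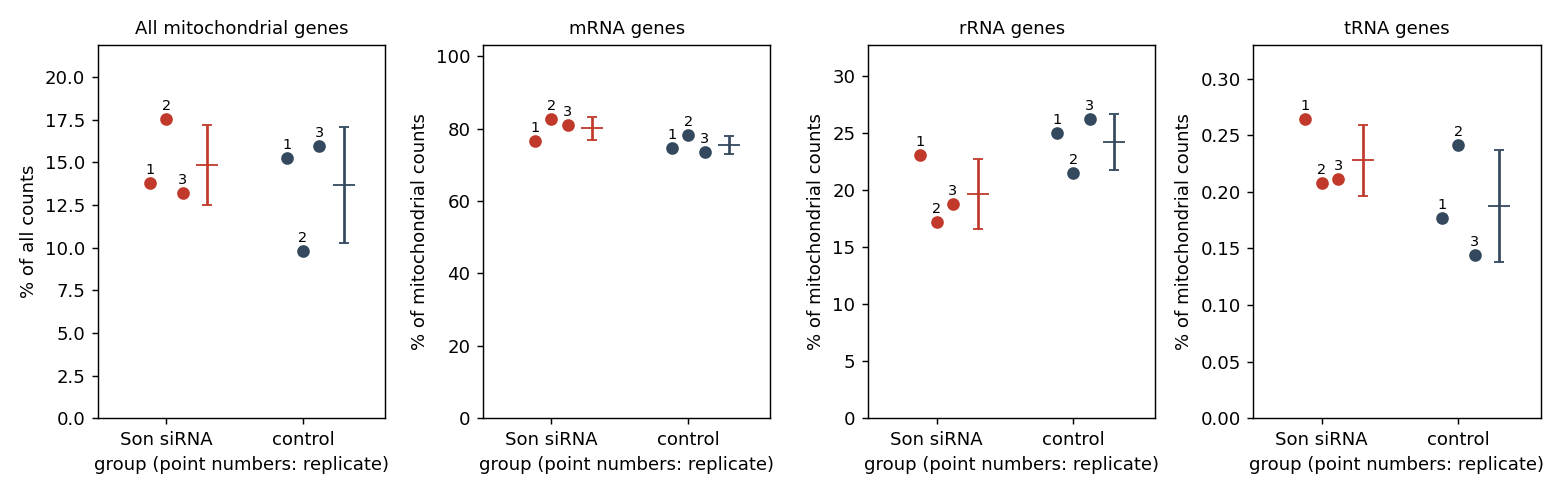
Share of all counts taken by mitochondrial genes (first panel) and share of mitochondrial counts taken by mRNA, rRNA and tRNA genes (other panels), in percent. Points are libraries numbered by replicate, and bars show the mean ± SD of 3 libraries. Counts of nuclear copies are not added to the mitochondrial genes. Within each panel the siRNA and control libraries overlap, and the mean rRNA share is 19.7% after siRNA and 24.25% in controls.

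Between classes, mRNAs took most of the mitochondrial counts in every library. The mRNA share was 76.6%, 82.6% and 81.0% in siRNA libraries and 74.8%, 78.3% and 73.6% in controls, with means of 80.1 ± 3.10% and 75.6 ± 2.41%. The rRNA share was 23.1%, 17.2% and 18.8% in siRNA libraries and 25.04%, 21.5% and 26.2% in controls, with means of 19.7 ± 3.07% and 24.25 ± 2.46%. In both classes siRNA library 1 lay inside the control range, so the differences were not beyond the spread of the libraries. The rRNA share differed by -4.55 percentage points (siRNA minus control) with all libraries and by -6.26 to -3.30 with 1 library left out. Without control 2 it was -5.93, and the siRNA libraries lay below both remaining controls in rRNA and above both in mRNA. These shares leave out the nuclear copies described further on, which carry only mRNA genes. With copies added, the rRNA share was 15.2 ± 2.46% after siRNA and 19.3 ± 2.11% in controls. The mRNA share was then 84.65 ± 2.48% and 80.5 ± 2.08%, and both shares again overlapped between groups. The 22 tRNAs together took 0.264%, 0.208% and 0.212% of mitochondrial counts in siRNA libraries and 0.177%, 0.241% and 0.144% in controls. Mature tRNAs carry no poly(A) tail and are shorter than most sequencing inserts, so counts on tRNA genes need not measure mature tRNA.

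By the respiratory complex they encode, the mRNAs divided in much the same way in both groups. ATP synthase mRNAs took 30.2 ± 0.632% of mitochondrial mRNA counts after siRNA and 27.5 ± 3.37% in controls. Cytochrome b, the only complex III subunit encoded in the mitochondria, took 28.7 ± 3.13% and 29.2 ± 2.71%. The 7 complex I mRNAs took 23.5 ± 2.12% after siRNA and 25.1 ± 3.09% in controls, and the 3 complex IV mRNAs took 17.6 ± 1.69% and 18.1 ± 4.97%. All 4 shares overlapped between groups. They were computed without the nuclear copies described further on, which carry mt-Atp6 but not mt-Cytb. The copy of mt-Atp6 had 0.953 to 1.005 times the counts of the gene across libraries. The size of the shares relative to each other therefore depends on how shared reads were divided.

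**Figure D2:**
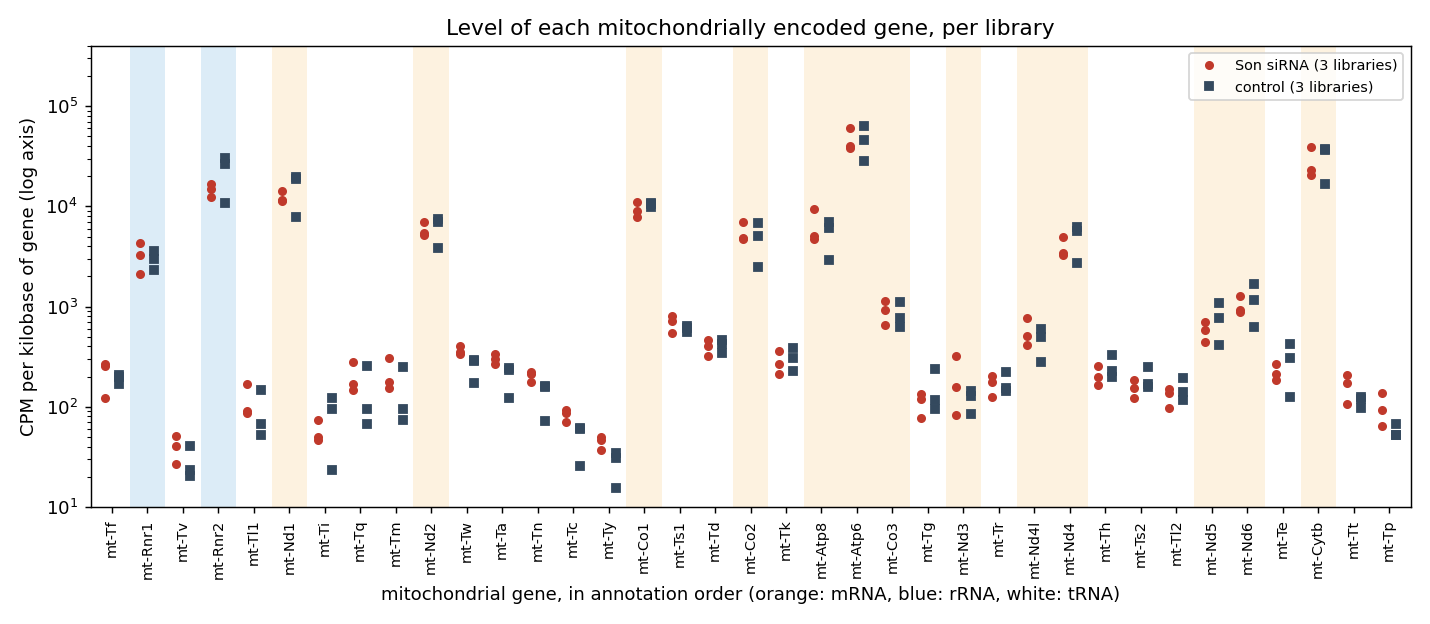
CPM per kilobase of gene on a log axis for the 37 mitochondrial genes, in their order along the annotated genome, with 3 siRNA and 3 control libraries for each. The counts of nuclear copies are not added. Apart from mt-Nd3, which lies among its neighbours mt-Tg and mt-Tr, group means of mRNAs and rRNAs stand above those of adjacent tRNAs, and mt-Atp6 is the highest gene.

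Levels per kilobase spanned a wide range across genes and had nearly the same order in every library. Over the 15 mRNAs and rRNAs, Spearman's rho between the profiles of any pair of libraries was 0.96 or more, as a description across genes that share library and depth. Over the 22 tRNAs it ran from 0.57 to 0.98. With nuclear copies added to their mitochondrial genes, mt-Atp6, a subunit of the proton channel of ATP synthase, was highest, at 92321 ± 25322 CPM per kilobase after siRNA and 90420 ± 34638 in controls. mt-Cytb followed with 27667 ± 10165 and 30426 ± 11897 CPM per kilobase, then mt-Rnr2, the large-subunit rRNA, with 14615 ± 2181 and 22697 ± 10458. mt-Nd5, mt-Nd3 and mt-Nd6, all complex I subunits, were the lowest of the 15, with mt-Nd5 at 576.7 ± 130 CPM per kilobase after siRNA and 752.0 ± 334 in controls.

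For most neighbours in that order the ranges of mean ± SD overlapped. In the siRNA libraries the exceptions were mt-Atp6 over mt-Cytb, mt-Cytb over mt-Rnr2 and mt-Nd4l over mt-Nd6, and in the controls they were mt-Atp6 over mt-Cytb and mt-Rnr1 over mt-Co3. The level per kilobase of the 15 genes, here without nuclear copies added, was set against sequence features. Spearman's rho was 0.13 for percent A, 0.31 for the longest run of A, 0.32 for gene length and -0.34 for position along the genome, all given as descriptions.

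None of the 37 genes was called between Son siRNA and control embryos. In the same test 176 of 17788 genes, 0.989%, passed the edgeR threshold of 0.05 after adjustment, 160 of them (0.899%) lower and 16 (0.0899%) higher after siRNA. Among the mitochondrial genes 0 of 37 also had an unadjusted p under 0.05, against 14.7% of all genes tested, and DESeq2 called 0 of 37, against 6.9% of all genes. The smallest adjusted p was 0.418, for mt-Tp, the proline tRNA. Fold changes of the 37 lay between -0.64 and 0.78 on the log2 scale with a median of 0.10, beside a median of 0.02 over all genes. Their 95% intervals reached from -1.80 for mt-Ti to 1.82 for mt-Ty, and from -1.14 to 1.68 among the mRNAs.

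**Figure D3:**
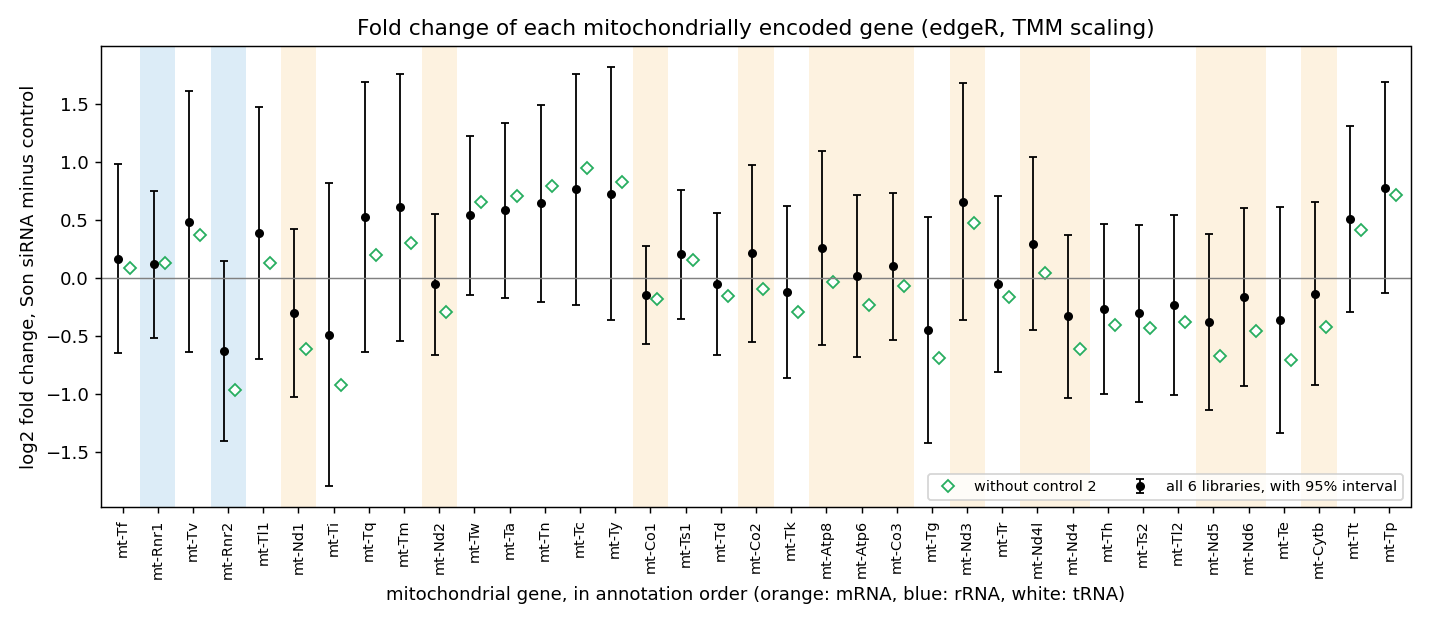
Log2 fold change of Son siRNA minus control for the 37 mitochondrial genes, in genome order, in edgeR with TMM scaling. Black points with 95% intervals use all 6 libraries and every interval crosses 0, and open green points leave out control 2, which lowers most mRNAs.

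By class, 6 mRNAs lay above 0 and 7 below with a median of -0.06, 13 tRNAs lay above and 9 below with a median of 0.295, and the 2 rRNAs fell on either side of 0. With 1 library left out the mRNA tally changed, to 2 above and 11 below (median -0.24) without control 2, to 1 above and 12 below (median -0.245) without siRNA library 2, and to 9 above and 4 below (median 0.047) without control 1. The positions also moved with the scaling. Scaled to total counts without TMM factors, the median of all genes was 0.31, and the median of the 13 mRNAs was 0.27 with 11 of them above 0. The mRNA median thus moved with that of all genes, and 0 of 37 genes were called on this scale, where 0.236% of all genes were. DESeq2 size factors and TMM factors computed without mitochondrial genes left the mRNA median at -0.07 in both.

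The large-subunit rRNA had the most negative fold change among the 37. mt-Rnr2 (ENSMUSG00000064339, chrM:1094-2675) had 23489, 26372 and 19500.1 CPM in the siRNA libraries, against 42334, 17113 and 48272 CPM in the controls. Controls 1 and 3 were well above all siRNA libraries and control 2 was below them all. The log2 fold change was -0.64 (SE 0.343, 95% interval -1.41 to 0.14), and the adjusted p was 0.444 in edgeR. Without control 2 it was -0.97 (SE 0.174) and the adjusted p was 0.0455 in edgeR, the only one of the 37 genes called in that fit, in which 1.66% of 18975 genes were called, 1.22% of the 18975 as lower. Without control 3 it was -0.36, the value nearest 0 among the fits that left out a library. The call thus came from leaving out the lowest library of this gene. In the fits that left out any library other than control 2, the adjusted p of mt-Rnr2 was 0.539 to 0.809 in edgeR.

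The small-subunit rRNA, encoded just upstream with mt-Tv between, had no such pattern. mt-Rnr1 (ENSMUSG00000064337, chrM:70-1024) had 4135, 3119 and 2028 CPM in the siRNA libraries, against 2237, 2880 and 3449 CPM in the controls, with a log2 fold change of 0.12 (SE 0.281) and an edgeR adjusted p of 0.911. The ratio of mt-Rnr2 to mt-Rnr1 per kilobase was 3.43, 5.10 and 5.81 in siRNA libraries, against 11.4, 3.59 and 8.45 in controls. The means were 4.78 ± 1.22 and 7.82 ± 3.96, and the groups overlapped through control 2.

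Both rRNAs hold internal runs of A, to which oligo(dT) might anneal. Their longest runs are shown in capitals with 15 bases on each side, from the GENCODE vM21 transcripts on the + strand of GRCm38 (mt-Rnr2 chrM:1473-1509, mt-Rnr1 chrM:690-724).
mt-Rnr2: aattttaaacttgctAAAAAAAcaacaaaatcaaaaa
mt-Rnr1: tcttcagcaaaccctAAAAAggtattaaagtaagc
The run is 7 bases in mt-Rnr2 and 5 in mt-Rnr1. Such runs are not particular to the rRNAs. Among the mRNAs the longest run is 8 bases in mt-Nd2, 7 in mt-Co1, mt-Nd4 and mt-Nd5, 5 in mt-Cytb and 3 in mt-Nd6. Where cDNA started within the rRNA genes was not tested, since the counts hold 1 value per gene.

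Among the mRNAs, the complex I genes mt-Nd1, mt-Nd4 and mt-Nd5 had the most negative fold changes. mt-Nd1 had 11190.0, 13724 and 10779 CPM in siRNA libraries, against 18630.5, 7468 and 17929 CPM in controls (log2 fold change -0.30, SE 0.321). mt-Nd4 had 4765, 6784 and 4509.8 CPM in siRNA libraries, against 8567, 3794 and 7876 CPM in controls (-0.33, SE 0.312). mt-Nd5 had 1057, 1286 and 813 CPM in siRNA libraries, against 1965, 749 and 1401 CPM in controls (-0.38, SE 0.337). In all 3 the siRNA libraries lay between control 2 below and controls 1 and 3 above. Their adjusted p was 0.672 to 0.742 in edgeR with all libraries, and 0.102 to 0.182 without control 2, where the log2 fold changes were -0.62, -0.62 and -0.67. Without control 1 they were -0.092, -0.12 and -0.029, so their size depended on which control was left out.

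Of the complex I mRNAs, mt-Nd3 and mt-Nd4l lay above 0. mt-Nd3 had 55.1, 111 and 29.004 CPM in siRNA libraries, against 44.6, 29.55 and 49.7 CPM in controls, with a log2 fold change of 0.66 (SE 0.451), the highest of the mRNAs. Without siRNA library 2, its highest library, the value was 0.016, and without siRNA library 3 it was 1.01. mt-Nd4l had 151, 227 and 122 CPM in siRNA libraries, against 177, 84.1 and 147 CPM in controls, with a log2 fold change of 0.29 (SE 0.331). Both overlapped between groups and both share nearly all their sequence with a nuclear copy. mt-Nd2, which showed -0.06 (SE 0.269), and mt-Nd6, which showed -0.17 (SE 0.339) and is the only mRNA encoded on the opposite strand, lay near 0.

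The complex IV and ATP synthase mRNAs, and cytochrome b, also lay within 0.3 log2 units of 0. mt-Cytb had 23317, 44937 and 26699.7 CPM in siRNA libraries, against 42003, 19109.8 and 43309 CPM in controls (log2 fold change -0.14, SE 0.348). mt-Atp6 had 25977, 41644 and 27219 CPM in siRNA libraries, against 31061, 19300.4 and 43591 CPM in controls (0.01, SE 0.308). mt-Co1, the catalytic subunit of cytochrome oxidase, had 13884, 17295 and 12147 CPM in siRNA libraries, against 16756, 15166 and 16154 CPM in controls (-0.15, SE 0.187). Of these 3 genes mt-Co1 had the smallest spread among controls, where control 2 was close to the others. mt-Co2, mt-Co3 and mt-Atp8 showed 0.21 (SE 0.339), 0.10 (SE 0.279) and 0.25 (SE 0.369), with adjusted p from 0.828 to 0.924 in edgeR.

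Set against the mitochondrial total, a ratio that involves no scaling to other nuclear genes but does depend on how reads shared with the nuclear copies were divided, 4 genes separated the groups, where 14.9% of all genes did so in their ratio to that total. mt-Co2, which holds the copper site that receives electrons in cytochrome oxidase, made up 2.71%, 2.78% and 2.89% of mitochondrial counts in siRNA libraries, against 1.93%, 1.85% and 2.35% in controls. mt-Atp8 made up 0.871%, 1.12% and 0.845% in siRNA libraries, against 0.705%, 0.639% and 0.729% in controls. mt-Nd4l made up 0.126%, 0.133% and 0.106% in siRNA libraries, against 0.0996%, 0.0904% and 0.0744% in controls. All 3 were higher in every siRNA library than in any control, and mt-Nd4 was lower, with 3.99%, 3.96% and 3.93% in siRNA libraries, against 4.81%, 4.08% and 3.994% in controls. For mt-Nd4 the gap between the groups was small, with control 3 close above siRNA library 1. An exact two-sided permutation test cannot give a p below 0.1 with 3 libraries a group, and no gene was called with the mitochondrial total as library size (0 of 17788 in edgeR, 1311 at an unadjusted p under 0.05). With nuclear copies added, mt-Co2, mt-Atp8 and mt-Nd4 still separated the groups and mt-Nd4l did not.

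mt-Nd4l and mt-Nd4 are read from 1 bicistronic mRNA in which their coding regions share 7 bases, yet they did not keep a fixed ratio. mt-Nd4 over mt-Nd4l per kilobase was 6.81, 6.43 and 7.99 in siRNA libraries, against 10.4, 9.73 and 11.6 in controls. The means were 7.08 ± 0.816 and 10.6 ± 0.934, and the groups did not overlap. With nuclear copies added the ratio was 2.78, 3.06 and 3.62 in siRNA libraries, against 4.64, 3.67 and 4.10 in controls, closer to 1 and with siRNA library 3 just below control 2. The other bicistronic pair, mt-Atp8 and mt-Atp6, which share 43 bases, had a ratio of mt-Atp6 to mt-Atp8 of 7.47 ± 0.947 after siRNA and 8.74 ± 1.196 in controls, with overlap. mt-Nd5 and mt-Nd6 lie on opposite strands and overlap by 14 bases. Their ratio per kilobase was 0.627, 0.556 and 0.502 in siRNA libraries, against 0.639, 0.659 and 0.667 in controls, lower in each siRNA library, with a small gap between siRNA library 1 and control 1. How often the ratio of a gene pair separates the groups was not computed, and these ratios were not tested. In ratio to the mitochondrial total, 14.9% of all genes did so.

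Counts of 7 mRNAs are tied to nuclear copies of mitochondrial DNA. The GENCODE vM21 annotation holds 7 unprocessed pseudogenes within chr1:24611535-24616197, on the - strand, which follow each other in mitochondrial gene order and carry copies of mt-Co1, mt-Co2, mt-Atp6, mt-Co3, mt-Nd3, mt-Nd4l and mt-Nd4. Of these, 5 are identical to the mitochondrial gene over their whole annotated length, 876 bases in the case of Gm28439 and mt-Nd4. Gm28438 differs from mt-Nd3 at 1 of 345 bases, T9461C, and Gm29216 differs from mt-Co1 at 6 of 492 bases, T6383A, C6384T, A6386G, A6387G, C6389A and A6393T. Each token gives the mitochondrial base, its position on the mitochondrial sequence counted from 1, and the base of the copy. The first 40 bases of the aligned part of both pairs are shown in the direction of the gene, with differing bases in capitals, for mt-Nd3 (chrM:9459-9498, + strand) and Gm28438 (chr1:24613080-24613119, - strand), and for mt-Co1 (chrM:6381-6420, + strand) and Gm29216 (chr1:24616158-24616197, - strand), all GRCm38.
mt-Nd3: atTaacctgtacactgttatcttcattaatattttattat
Gm28438: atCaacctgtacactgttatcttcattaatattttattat
mt-Co1: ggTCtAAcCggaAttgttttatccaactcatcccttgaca
Gm29216: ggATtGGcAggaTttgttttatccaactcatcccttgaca
Within the aligned stretches, a read that covers none of these bases carries nothing that separates gene from annotated copy. The copies of mt-Co1 and mt-Nd4 cover only part of the gene, and 30.8% of the 100-base stretches of mt-Co1 and 60.8% of those of mt-Nd4 occur in nuclear transcripts.

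The deposited counts divide the shared sequence in ways that differ from gene to gene. The copy over gene count ratio was 0.953 to 1.01 for Gm10925 and mt-Atp6, 0.986 to 0.992 for Gm28661 and mt-Co2, and 0.997 to 1.04 for Gm28437 and mt-Co3 across the 6 libraries, that is, close to an even division. It was 0.387 to 0.439 for mt-Nd4, which the copy matches over part of its length, and 0.117 to 0.158 for mt-Co1. For the short genes the copy had more counts than the gene, with ratios of 1.98 to 3.07 for Gm10222 and mt-Nd4l and 2.36 to 6.60 for Gm28438 and mt-Nd3. With the copy's counts added, mt-Nd3 had 307 ± 85.5 CPM after siRNA and 295 ± 87.8 CPM in controls, and its log2 fold change was 0.06 (SE 0.296) in place of 0.66. That of mt-Nd4l became 0.08 in place of 0.29, and 0 of 37 genes were called, against 0.979% of all genes. Whether any of these counts came from transcripts of chromosome 1 cannot be told apart from how shared reads were divided.

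**Figure D4:**
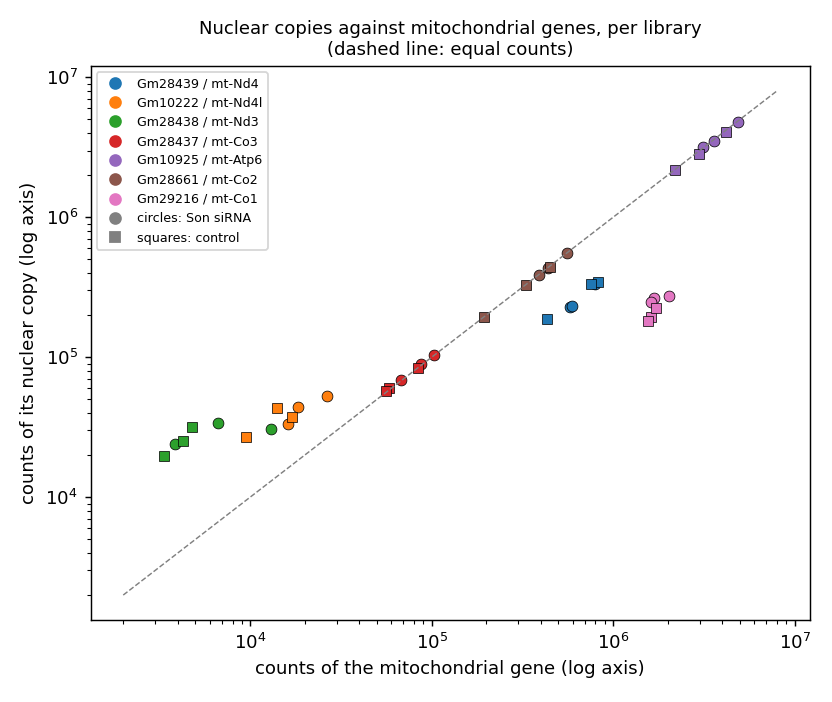
Counts of each of 7 nuclear copies on chromosome 1 against counts of the matching mitochondrial gene, per library, on log axes, with a dashed line at equal counts. Circles are siRNA libraries and squares are controls. Copies of mt-Atp6, mt-Co2 and mt-Co3 follow the line, those of mt-Nd4l and mt-Nd3 lie above it, and those of mt-Nd4 and mt-Co1 below.

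The tRNA genes were low, with 1.87 to 56.1 CPM in siRNA libraries and 1.03 to 44.3 CPM in controls. Highest per kilobase over all libraries were mt-Ts1 and mt-Td, the serine and aspartate tRNA genes between mt-Co1 and mt-Co2, then mt-Tw, mt-Tk, mt-Te and mt-Ta. mt-Ts1 had 56.1, 49.8 and 37.9 CPM in siRNA libraries, against 42.3, 38.4 and 44.3 CPM in controls, with a log2 fold change of 0.20 (SE 0.247). mt-Td (-0.05, SE 0.269), mt-Tk (-0.12, SE 0.328) and mt-Te (-0.36, SE 0.431) also overlapped between groups. mt-Tv and mt-Ty were lowest, at 33.9 and 35.7 CPM per kilobase over the 6 libraries. As tRNA genes abut or overlap the genes beside them and reads carry no strand, their counts can include reads of unprocessed or adjoining RNA.

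The 5 genes between mt-Nd2 and mt-Co1, which code for the tryptophan, alanine, asparagine, cysteine and tyrosine tRNAs, were the only ones of the 37 in which CPM did not overlap between groups. All 5 were higher after siRNA, and 5 of 37 is near the 12.1% of all genes tested that did not overlap with siRNA higher. With siRNA lower, 0 of the 37 did not overlap, against 11.6% of all genes. In both directions together 23.7% of all genes did not overlap. They span 377 bases, with the tryptophan gene on the + strand and the other 4 on the - strand. Their sequences, from GENCODE vM21 on GRCm38 and each in the direction of its gene, are shown with the anticodon in capitals, for mt-Tw (chrM:4950-5016), mt-Ta (chrM:5018-5086), mt-Tn (chrM:5089-5159), mt-Tc (chrM:5192-5257) and mt-Ty (chrM:5260-5326).
mt-Tw: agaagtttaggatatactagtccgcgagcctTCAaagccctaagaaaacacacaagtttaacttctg
mt-Ta: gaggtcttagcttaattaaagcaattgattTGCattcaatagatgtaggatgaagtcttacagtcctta
mt-Tn: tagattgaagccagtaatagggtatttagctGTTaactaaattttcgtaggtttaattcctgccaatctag
mt-Tc: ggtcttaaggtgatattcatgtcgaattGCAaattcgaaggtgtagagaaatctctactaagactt
mt-Ty: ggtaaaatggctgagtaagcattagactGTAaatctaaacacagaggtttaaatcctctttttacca

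mt-Tw had 23.6, 27.3 and 22.5 CPM in siRNA libraries, against 19.8, 19.3 and 11.5 CPM in controls. mt-Ta had 20.5, 23.1 and 18.3 CPM in siRNA libraries, against 16.9, 15.9 and 8.53 CPM in controls. mt-Tn had 14.98, 15.8 and 12.5 CPM in siRNA libraries, against 11.6, 11.1 and 5.12 CPM in controls. Per kilobase, levels were lower gene by gene along the cluster in all 6 libraries. The last gene, mt-Ty, had 3.33, 3.13 and 2.50 CPM in siRNA libraries, against 2.34, 2.04 and 1.03 CPM in controls. Summed over the 5 genes the level was 68.0 ± 7.23 CPM after siRNA and 44.9 ± 14.8 CPM in controls. Control 3 was the lowest library for all 5 and controls 1 and 2 were close below the siRNA libraries. The log2 fold changes were 0.54 to 0.76, and the adjusted p was 0.470 to 0.549 in edgeR, so none was called. Without control 3 they were 0.33 for mt-Tw, 0.33 for mt-Ta, 0.35 for mt-Tn, 0.46 for mt-Tc and 0.45 for mt-Ty. As shares of mitochondrial counts all 5 overlapped between groups.

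Other tRNA neighbours did not separate the groups. mt-Ti, mt-Tq and mt-Tm, between mt-Nd1 and mt-Nd2, summed to 32.7 ± 11.9 CPM after siRNA and 25.02 ± 15.5 CPM in controls. Within this cluster mt-Ti had a log2 fold change of -0.49 (SE 0.577) beside 0.52 for mt-Tq and 0.61 for mt-Tm. mt-Th, mt-Ts2 and mt-Tl2, between mt-Nd4 and mt-Nd5, lay at -0.31 to -0.23, while mt-Tt and mt-Tp at the end of the annotated genes lay at 0.51 and 0.78. All tRNAs together took 0.0365%, 0.0364% and 0.0280% of all counts in siRNA libraries, against 0.0270%, 0.0236% and 0.0230% in controls. Every siRNA library was thus higher on the scale of total counts, without TMM factors. On that scale the log2 fold changes of all genes had a median of 0.31, with 65.8% above 0. How many genes separate the groups there was not computed. As a share of mitochondrial counts, all tRNAs together overlapped between groups.

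**Figure D5:**
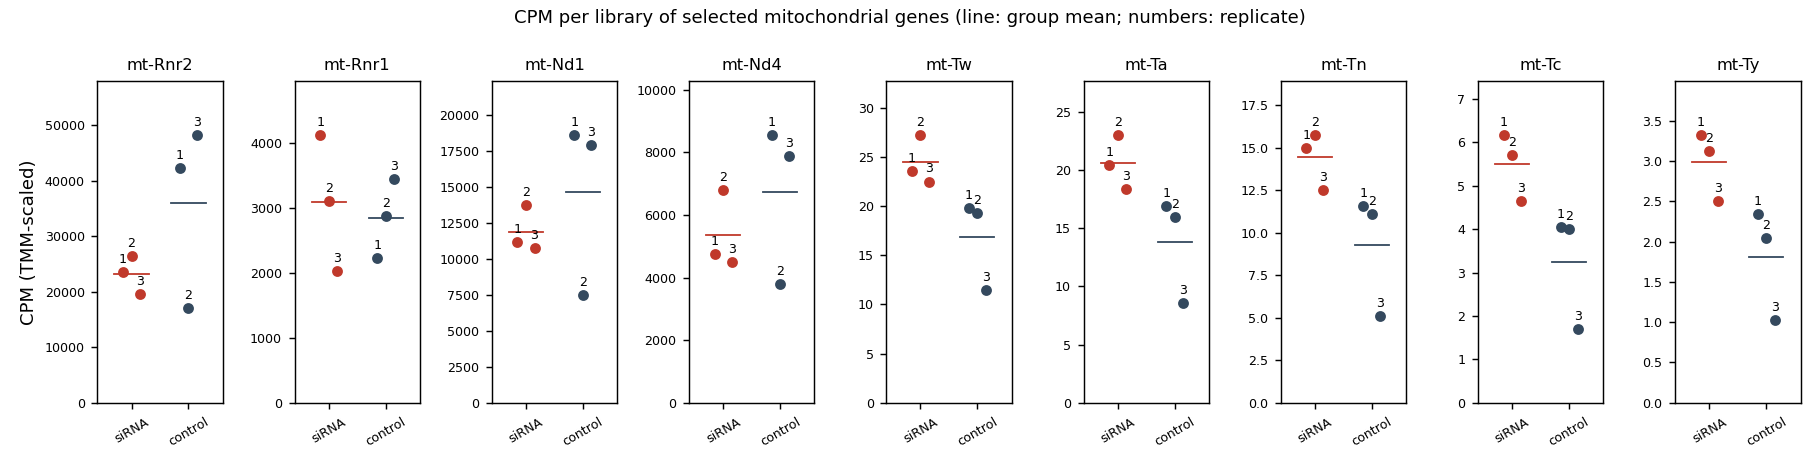
CPM after TMM scaling in each library for both rRNAs, 2 complex I mRNAs and the 5 tRNA genes between mt-Nd2 and mt-Co1, with lines at group means and numbers for replicates. For mt-Rnr2, mt-Nd1 and mt-Nd4, control 2 lies below and controls 1 and 3 above the siRNA libraries. For the 5 tRNAs every siRNA library lies above every control and control 3 is the lowest.

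The spread of mitochondrial genes lay with particular libraries. Control 2 was the lowest control for 29 of the 37 genes, 13 of 13 mRNAs among them, and the lowest of all 6 libraries for 18. Set against the mean of controls 1 and 3, its level was 0.378 for mt-Rnr2, 0.409 for mt-Nd1 and 0.448 for mt-Cytb, but 0.922 for mt-Co1 and 1.01 for mt-Rnr1. It was above that mean for the tRNA genes between mt-Nd2 and mt-Co1, from 1.21 for mt-Ty to 1.40 for mt-Tc. On the other side, siRNA library 2 was the highest siRNA library for 28 genes, 13 of 13 mRNAs among them. The median coefficient of variation of the 37 genes was 23.3% among siRNA libraries and 38.2% among controls, beside 14.98% and 28.9% for all 6079 genes at 10 CPM or more. TMM factors also differed by group, with 1.158, 1.023 and 1.153 in siRNA libraries and 0.8582, 1.052 and 0.8105 in controls, so control 2 stood with the siRNA libraries in this measure. Its part in the mitochondrial values was not tested beyond the fits without it.

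Nuclear genes for mitochondrial RNA, for the maintenance of mitochondrial DNA and for mitochondrial biogenesis were described from lists of 75 genes, 74 of which were tested. The quasi-likelihood test of edgeR called 0 of 74, with 8 higher and 8 lower at an unadjusted p under 0.05, against 14.7% of all genes. Of the 74, 36 lay above 0 and 38 below, with a median log2 fold change of -0.02 beside 0.02 over all genes. DESeq2 called 11 of 74, 6 higher and 5 lower, against 6.9% of all genes.

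The gene nearest the threshold was the polymerase itself. Polrmt, the RNA polymerase that transcribes mitochondrial DNA, had 5.29, 5.49 and 3.76 CPM in siRNA libraries, against 15.6, 28.3 and 12.4 CPM in controls. Every siRNA library lay below every control, as in 11.6% of all genes. The log2 fold change was -1.95 (SE 0.398), and edgeR gave an adjusted p of 0.0622. Adjusted p values of 0.0422 with a filter of 50 units in 3 libraries, 0.0375 with counts divided by 4 and 6.13e-05 by DESeq2 put it past the threshold. It was 0.144 with total counts, 0.145 with the replicate number as a block, 0.402 with the mitochondrial total and 0.0764 with no filter, and in the 6 fits that left out a library it was 0.0660 to 0.346. Tfam, which packages mitochondrial DNA and starts its transcription, had 93.4, 150.2 and 87.2 CPM in siRNA libraries, against 74.3, 81.5 and 68.9 CPM in controls (log2 fold change 0.56, SE 0.262, adjusted p 0.367 in edgeR).

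In the processing list, 12 genes not all of which act in the cutting of long mitochondrial RNAs, the smallest p belonged to Ptcd2 and Hsd17b10. Ptcd2, a pentatricopeptide protein known in mouse for the maturation of the mRNA of cytochrome b, averaged 13.1 ± 6.55 CPM after siRNA and 33.7 ± 9.90 CPM in controls (log2 fold change -1.36, adjusted p 0.168 in edgeR). Hsd17b10, a subunit of the nuclease that cuts the 5′ ends of mitochondrial tRNAs, averaged 9.06 ± 1.06 CPM after siRNA and 16.3 ± 5.16 CPM in controls (-0.84, adjusted p 0.280 in edgeR). The list's median was -0.07, and that of the 11 stability and decay genes was -0.08. Among the stability and decay genes, Pde12, which removes poly(A) tails from mitochondrial mRNAs, averaged 32.6 ± 4.98 CPM after siRNA and 18.5 ± 4.60 CPM in controls (0.81, adjusted p 0.239 in edgeR), and Angel2 had 59.8, 61.6 and 64.6 CPM in siRNA libraries, against 16.45, 57.7 and 23.6 CPM in controls (0.93, adjusted p 0.357 in edgeR).

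The list for the modification of mitochondrial rRNA and tRNA, 22 genes not all of which modify RNA, had a median of 0.07. At an unadjusted p under 0.05 in edgeR, 3 of the 22 were higher and 3 lower after siRNA, against 14.7% of all genes. Gtpbp3, which acts in the modification of the wobble base of several mitochondrial tRNAs, averaged 25.02 ± 3.19 CPM after siRNA and 8.29 ± 5.36 CPM in controls (log2 fold change 1.59, adjusted p 0.134 in edgeR). Without control 2, Gtpbp3 at 2.27 and Angel2 at 1.63 passed the threshold, with adjusted p of 0.0278 and 0.0360 in edgeR. Pus1, a pseudouridine synthase that acts on tRNAs, averaged 8.44 ± 3.42 CPM after siRNA and 3.15 ± 0.255 CPM in controls (1.42, adjusted p 0.146 in edgeR).

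For the maintenance of mitochondrial DNA, 13 genes had a median of 0.06. Rrm2b, a ribonucleotide reductase subunit that supplies nucleotides for it, averaged 44.8 ± 3.596 CPM after siRNA and 19.9 ± 6.30 CPM in controls (log2 fold change 1.17, adjusted p 0.112 in edgeR). Lig3, the DNA ligase of mitochondria, averaged 2.67 ± 1.07 CPM after siRNA and 8.15 ± 0.476 CPM in controls (-1.61, adjusted p 0.102 in edgeR). Among regulators of mitochondrial biogenesis, 6 tested genes had a median of 0.12, and Gabpa and Gabpb1, subunits of a transcription factor of many respiratory genes, showed -0.82 and -0.65, with adjusted p of 0.196 and 0.352 in edgeR.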

How the data were processed

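RNA of 4-cell mouse embryos was measured in 6 libraries, and groups and replicate numbers come from the sample titles. The authors deposited 1 table of estimated counts per library, whole numbers that are not normalized. The aligner HISAT2 2.0.5, the assembler StringTie 1.3.3b and the build GRCm38 are named in the submitters' processing notes. The annotation release, read length, strand setting and handling of reads with several matches were not given in the sources used here.

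Counts were used as deposited. Genes kept by filterByExpr were tested for Son siRNA minus control with edgeR 4.0.16 in R 4.3.3 (TMM scaling, glmQLFit, glmQLFTest, no block), with Benjamini-Hochberg adjustment over all genes and a threshold of 0.05. CPM are TMM-scaled, and levels per kilobase use gene lengths of GENCODE vM21, which also gave coordinates and sequences. Nuclear copies were genes with at least 50% of their 100-base stretches in a mitochondrial gene. The gene list, the mitochondrial classes and the nuclear lists were chosen with earlier results of these data known.

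Text names all mRNAs and rRNAs, the 6 tRNAs highest per kilobase, and 2 nuclear genes of each list with the smallest p. Of the nuclear copies, the 4 highest were to be named, and the other 3 were named because their counts bear on a named gene. The other tRNAs were named after their values were seen. Alternatives were DESeq2 1.42.0, other scalings and filters, counts divided by 4, a replicate block, each library left out and, added after seeing the data, nuclear copies summed with their genes.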

Additional observations from a re-analysis of the deposited data

How the results depend on the processing

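The count of genes called over the whole table, 176, was 42 with total counts, 0 with the mitochondrial total, 100 with no filter, 288 with a filter of 50 units in 3 libraries, 330 with counts divided by 4, 1228 by DESeq2 and 0 to 315 without 1 library. Mitochondrial genes called stayed at 0 in all these settings, and were 0 to 1 without 1 library. In the nuclear lists, the genes called were 1 with the filter of 50 units, 1 with counts divided by 4, 11 by DESeq2 and 0 to 2 without 1 library. Per kilobase, the tRNA share differed by 0.417 percentage points, against 0.0406 by counts, since tRNA genes are short. The mitochondrial share of all counts differed by 1.18 percentage points with all libraries and by -0.769 to 2.33 without 1 library, below 0 without control 2 (-0.769) and without siRNA library 2 (-0.158). The cause of the other changes was not tested.

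No mitochondrial gene that changed sign was called in either fit. With total counts, log2 fold changes turned to 0.039 for mt-Nd1, 0.27 for mt-Nd2, 0.14 for mt-Co1, 0.16 for mt-Nd6, 0.19 for mt-Cytb, 0.25 for mt-Td and 0.19 for mt-Tk. With the mitochondrial total they turned to 0.15 for mt-Nd2, 0.057 for mt-Nd6, 0.063 for mt-Cytb, 0.067 for mt-Td and 0.028 for mt-Tk. With TMM factors computed without mitochondrial genes, mt-Atp6 turned to -0.0012. Without 1 library, values ran from -0.15 to 0.35 for mt-Rnr1, -0.30 to 0.12 for mt-Nd2, -0.0935 to 0.55 for mt-Co2, -0.14 to 0.50 for mt-Atp8, -0.24 to 0.33 for mt-Atp6, -0.10 to 0.36 for mt-Co3, -0.0079 to 0.53 for mt-Nd4l, -0.46 to 0.21 for mt-Nd6, -0.49 to 0.0539 for mt-Cytb, -0.19 to 0.0766 for mt-Td, -0.36 to 0.0839 for mt-Tk and -0.71 to 0.0458 for mt-Te. The range was -0.97 to -0.36 for mt-Rnr2, -0.62 to -0.092 for mt-Nd1, -0.62 to -0.12 for mt-Nd4, -0.67 to -0.029 for mt-Nd5 and 0.016 to 1.01 for mt-Nd3. Of 327 fold changes of 34 named genes in other settings, 304 kept their direction and side of the threshold. Of 204 with a library left out, 174 did, 24 changed sign and the others crossed the threshold.

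Deviations of same-numbered libraries from their group means had correlations of -0.274, -0.332 and 0.023 over 6079 genes. Those of differently numbered libraries ran from -0.226 to 0.412. As deviations were centred within groups of 3 libraries, these values cannot decide whether libraries shared a litter. With the replicate number as a block, edgeR called 0 genes, with 1997 at an unadjusted p under 0.05, and Son had a log2 fold change of -3.29 with an adjusted p of 0.0617 by edgeR. The low counts of tRNA genes, down to 99 units, limit what can be said of the smaller ones.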
